A study of Homo sapiens with 4 samples.

Results

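The S100 gene cluster of chromosome 1 was examined through 10 of its genes, S100A2, S100A3, S100A4, S100A6, S100A7, S100A8, S100A9, S100A10, S100A11 and S100A16, out of 19970 protein-coding genes on chromosomes 1 to 22 and X. The genes were taken by name, and all peaks over the span from S100A10 to S100A16 with 50 kb either side were described (chromosome 1, 151932915 to 153663137, hg38, 1.73 Mb). Acetylation of lysine 27 on histone H3 (H3K27ac), a mark of active promoters and enhancers, had been mapped by ChIP-seq in MDA-MB-231 and Hs578T, established human triple-negative breast cancer (TNBC) cell lines, with 2 libraries per line. By the labels, both lines had been starved of serum, exposed for 48 h to the cytokine TWEAK at 10 ng/ml and then kept for 72 h without it, whereas the wash-off described in the study is longer. Both lines had the same treatment, and untreated cells were not analysed here, so the values describe cells after TWEAK removal and show no effect of TWEAK.

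S100 proteins are small calcium-binding proteins with paired EF-hand motifs. Inside cells they bind partners such as annexins and myosin, and several are released and act as ligands of the receptors RAGE and TLR4. Their genes flank the epidermal differentiation complex, a long array of genes for the cornified envelope of skin, which is active in keratinocytes. S100A4 and S100A6 are known from motile mesenchymal cells, whereas S100A7, S100A8 and S100A9 are known from inflamed epithelium and myeloid cells.

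Each deposited list gives, per peak, a start, an end and a fold enrichment. This is the ratio of ChIP signal to the local background estimated when the peaks of that library were called, where input was used. One list stood apart. On chromosomes 1 to 22 and X, only 209 peaks were listed for MDA-MB-231 replicate 1, none of them in the locus. The others, called the large lists here, held 43353 (MDA-MB-231 replicate 2), 46330 (Hs578T replicate 1) and 44920 (Hs578T replicate 2), and any 3 values given together below follow this order of lists. Values below therefore come from 1 library of MDA-MB-231 and 2 of Hs578T, and no statement about MDA-MB-231 has a replicate. As a check of cell type, the mesenchymal genes VIM, CD44 and AXL had a promoter peak in each large list and the luminal genes ESR1, GATA3 and FOXA1 in none. The labels name the lines and give no such state. Over all protein-coding genes 55.6% were marked in every large list, so these few genes say little alone.

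Of the 10 genes, the same 7 carried a promoter peak in each large list, namely S100A10, S100A11, S100A6, S100A4, S100A3, S100A2 and S100A16. A promoter peak was one that overlapped the 1 kb on either side of the start site of the Ensembl canonical transcript. S100A9, S100A8 and S100A7 had none in any list, and MDA-MB-231 replicate 1 marked 0 of the 10. Across all protein-coding genes 58.1% were marked in MDA-MB-231 replicate 2, 58.2% in Hs578T replicate 1, 56.4% in Hs578T replicate 2 and 0.0601% in MDA-MB-231 replicate 1, and 55.6% were marked in every large list. A share of 7 in 10 is near this background, and some members share a peak, so the count alone says little about the cluster. The order of the genes carried the pattern instead. Among the 10, the marked genes lay at the ends of the locus and the 3 unmarked ones were consecutive within it. S100A12 and S100A7A, S100 genes outside the 10 that were also unmarked, lay between those 3. Unmarked S100A14, also outside the 10, lay beside S100A16 at a marked end, so with the 1 kb window the pattern does not hold for every S100 gene.

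The sequence upstream of the start site is shown for 6 members that differ in their mark, the 3 without a peak and 3 with one, so that their base composition and motifs can be compared. Each run holds the 250 bases before the canonical start, 5′ to 3′ on the strand of the gene, from RefSeq promoters on GRCh38.p14. Capitals mark the TATA box letters TATAAA or the AP-1 motif (TGAGTCA or its reverse complement TGACTCA). The unmarked genes S100A9, S100A8 and S100A7 follow first.
S100A9, chr1:153357604-153357853, plus strand: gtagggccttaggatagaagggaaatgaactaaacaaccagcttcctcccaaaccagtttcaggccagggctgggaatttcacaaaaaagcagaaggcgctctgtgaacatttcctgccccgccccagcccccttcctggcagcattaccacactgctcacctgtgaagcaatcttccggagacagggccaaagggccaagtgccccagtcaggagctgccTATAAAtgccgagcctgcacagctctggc
S100A8, chr1:153391074-153391323, minus strand: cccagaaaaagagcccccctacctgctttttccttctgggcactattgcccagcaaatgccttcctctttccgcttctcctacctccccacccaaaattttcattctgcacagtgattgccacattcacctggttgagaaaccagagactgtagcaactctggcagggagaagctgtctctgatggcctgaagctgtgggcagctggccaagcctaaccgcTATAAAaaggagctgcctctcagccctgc
S100A7, chr1:153460652-153460901, minus strand: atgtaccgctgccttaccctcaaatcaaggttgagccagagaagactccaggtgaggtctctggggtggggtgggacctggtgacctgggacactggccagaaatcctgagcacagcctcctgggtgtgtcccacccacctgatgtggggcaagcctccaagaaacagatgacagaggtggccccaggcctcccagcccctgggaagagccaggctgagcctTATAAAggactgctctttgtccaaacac
The marked genes S100A10, S100A4 and S100A2 come next.
S100A10, chr1:151993860-151994109, minus strand: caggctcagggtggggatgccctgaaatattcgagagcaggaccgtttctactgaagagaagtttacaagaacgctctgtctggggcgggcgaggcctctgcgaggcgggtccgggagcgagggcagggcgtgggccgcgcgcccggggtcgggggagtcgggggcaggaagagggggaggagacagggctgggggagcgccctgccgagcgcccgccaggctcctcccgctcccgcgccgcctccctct
S100A4, chr1:153545807-153546056, minus strand: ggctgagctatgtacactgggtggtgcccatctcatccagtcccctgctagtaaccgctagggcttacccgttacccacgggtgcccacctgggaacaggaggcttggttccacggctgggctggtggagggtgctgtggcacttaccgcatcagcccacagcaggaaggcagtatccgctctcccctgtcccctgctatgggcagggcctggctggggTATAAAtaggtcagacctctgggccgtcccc
S100A2, chr1:153565845-153566094, minus strand: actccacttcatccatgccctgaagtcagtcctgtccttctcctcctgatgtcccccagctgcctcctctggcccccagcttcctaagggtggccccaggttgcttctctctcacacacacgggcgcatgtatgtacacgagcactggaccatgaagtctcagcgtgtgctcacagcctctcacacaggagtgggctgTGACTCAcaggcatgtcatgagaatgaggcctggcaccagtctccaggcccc

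All 3 unmarked members held TATAAA close to the start, with its first base at position -29 from the start in S100A9 and S100A8 and -28 in S100A7. Among the 7 marked members only S100A4 held these exact letters, at -31. The further S100 genes of chromosome 1 did not divide this way. S100A13, marked in each large list, held TATAAA at -29, and unmarked S100A14 lacked it. Unmarked S100A7A and S100A12 held it, at -28 and -8, and marked S100A5 and S100A1 did not. Variants of these letters were not searched. TATAAG stood close to the start of marked S100A6 and of unmarked S100A14, so the division of the members depends on the exact letters. Of 35114 RefSeq promoters of the same length, 6.80% held TATAAA on the strand of the gene. S100A2 held the AP-1 motif at -52 and S100A3 at -225, and it was in none of the other 8 members, against 4.20% of all promoters. No member held the NF-κB motif, which 5.21% of promoters held on either strand. CpG dinucleotides numbered 24 upstream of both S100A10 and S100A6 and 15 upstream of S100A11, above the median of 11. The unmarked genes had 4 (S100A9), 2 (S100A8) and 1 (S100A7), but S100A16 also had 1 and S100A2 and S100A3 had 4 each, so that marked and unmarked members overlapped in CpG content.

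**Figure D1:**
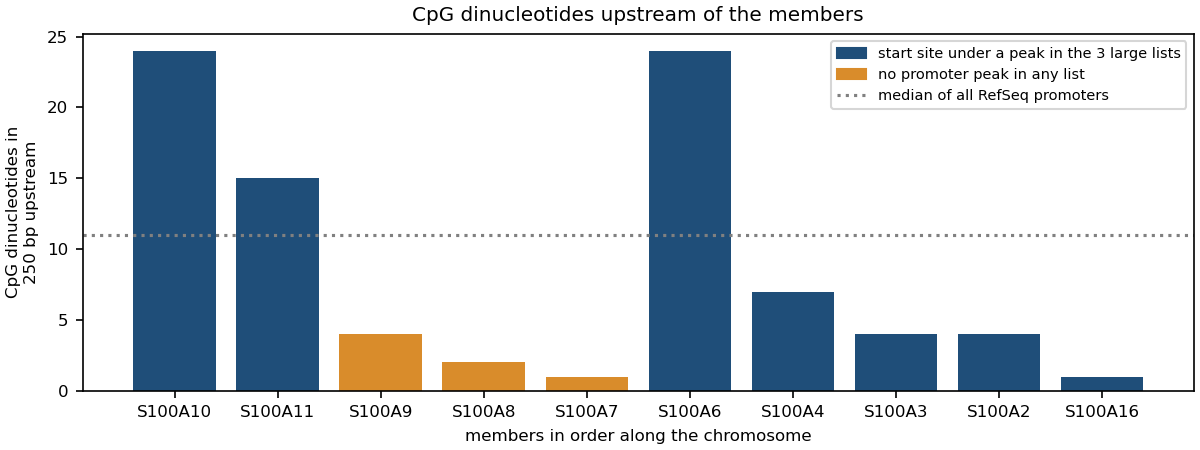
Number of CpG dinucleotides in the 250 bp upstream of the canonical start site (vertical axis) for the 10 members in order along chromosome 1 (horizontal axis). Blue bars are genes with a peak at the start site in the 3 large lists, orange bars genes with none, and the dotted line is the median of 11 over RefSeq promoters. S100A10, S100A11 and S100A6 exceed the median, and the other 4 marked genes do not.

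The map of the locus showed dense peaks at its ends and few between. In the 154090 bp around S100A10 and S100A11, peaks covered 16%, 16.4% and 15.6% of the sequence. From S100A6 to 50 kb beyond S100A16, 128539 bp, they covered 25.3%, 30.1% and 26.7%. In the 1270849 bp between the S100A11 flank and S100A9, which hold 47 coding start sites, they covered 0.952%, 1.10% and 0.965%. From S100A9 to S100A7, 102798 bp with 5 coding start sites, no list had a peak. In the whole locus there were 32, 34 and 33 peaks covering 4.17%, 4.68% and 4.26% of the sequence, compared with 3.26%, 3.57% and 3.31% of chromosome 1. The Hs578T lists gave 33.5 ± 0.707 peaks and 4.47% ± 0.294 coverage (SD, n = 2). The shares of chromosome 1 were taken over its full length, including gaps in the assembly where no peak can be called.

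**Figure D2:**
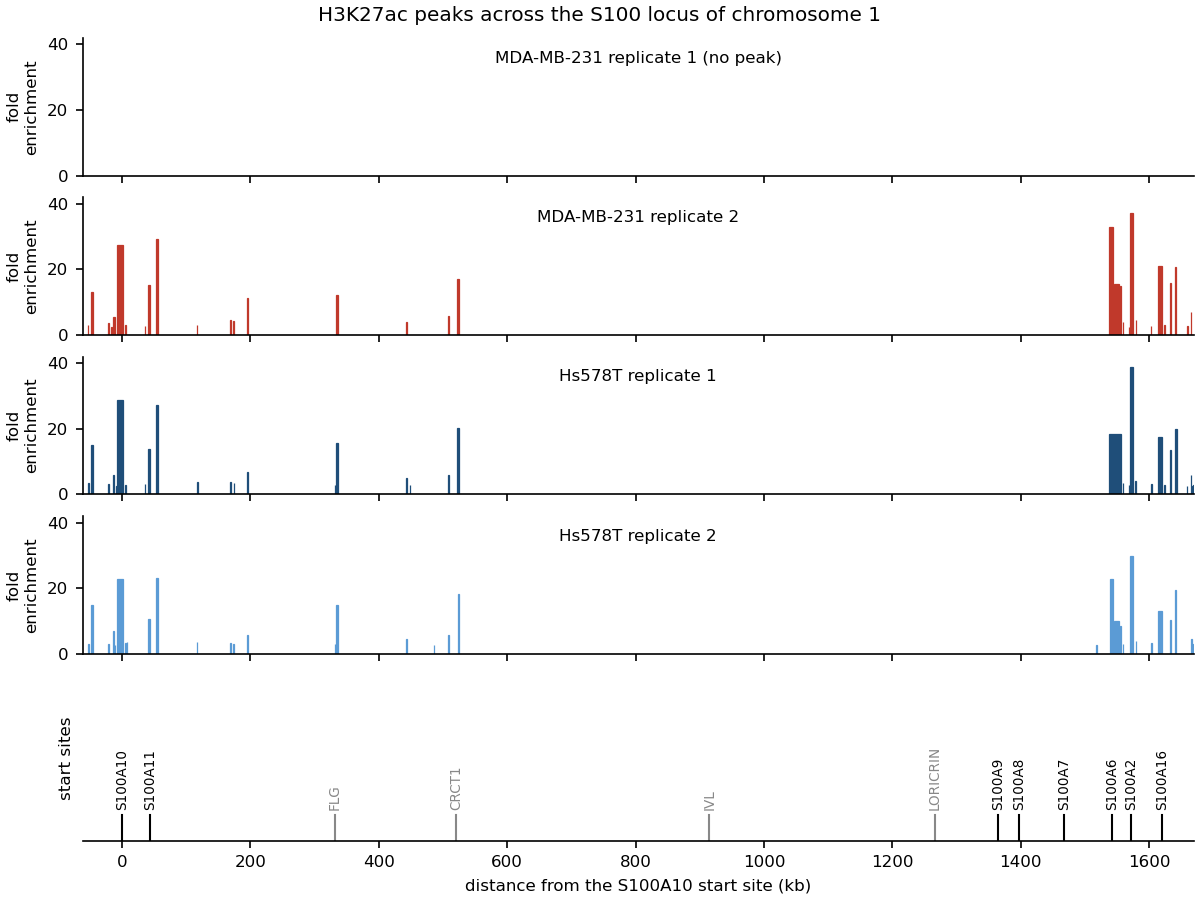
Fold enrichment (vertical axis, linear) of each deposited peak against distance from the S100A10 start site in kb (horizontal axis), 1 panel per list, with start sites of members in black and of other genes in grey. S100A4 and S100A3, between S100A6 and S100A2, are left out of the labels for space. Bars span each peak, with a thin outline so that narrow peaks remain visible. The large lists show peaks at the ends of the locus and none over S100A9, S100A8 and S100A7, and MDA-MB-231 replicate 1 has no peak.

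At the low-coordinate end lies S100A10 (ENSG00000197747.9, minus strand, start site 151993859), which encodes p11, a light chain that joins annexin A2 in a complex at the plasma membrane. A peak of 8894, 8944 and 9078 bp held the start site. It reached 1877, 1991 and 1982 bp upstream and 7016, 6952 and 7095 bp into the gene. Its fold enrichment was 27.3, 28.9 and 22.7. Because this ratio is relative to a background estimated for each library on its own, only its rank within a list was compared. By rank it stood at 156 of 10136, 70 of 10151 and 83 of 9841 promoter peaks.

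S100A11 (ENSG00000163191.6, minus strand, start site 152037004), a partner of annexin A1, is the next gene along. Its promoter peak was narrower, at 3844, 3749 and 4121 bp, and weaker, with fold enrichments of 15.1, 13.7 and 10.6. Its ranks were 1823, 1849 and 2066, so in each large list it followed S100A10. A second strong peak lay 9172 bp or more upstream of it (chromosome 1, 152046176 to 152049567 over the lists), with fold enrichments of 29.2, 27.1 and 23.1. Within each of these lists it had a higher ratio than the S100A11 promoter peak itself. In MDA-MB-231 replicate 2 and Hs578T replicate 2 it also exceeded that of S100A10, and in Hs578T replicate 1 it was below it. The start of a longer S100A11 transcript, at 152047907, outside the GENCODE basic set, fell under this peak, so it is distal only with respect to canonical start sites.

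At the other end, S100A6, S100A4 and S100A3, with S100A5 between S100A6 and S100A4, formed an acetylated stretch of 18365, 18903 and 18256 bp. In Hs578T replicate 1 this was 1 peak, one of the 92 widest in that list. In the other large lists it was broken into 3 peaks by gaps of 1433 and 1300 bp (MDA-MB-231) and of 1040 and 1257 bp (Hs578T replicate 2), and 15632 and 15959 bp were covered. The break did not follow the line label. A joined peak carries 1 fold enrichment for all the genes under it, here 18.3 with rank 750 of 10151, so the values of these genes in Hs578T replicate 1 cannot be told apart from each other.

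S100A6 (ENSG00000197956.10, minus strand, start site 153535991) encodes calcyclin. Where the stretch was split, its peak measured 5861 and 5638 bp with fold enrichments of 32.9 and 22.9, at ranks 49 and 78, MDA-MB-231 being given first. S100A4 (ENSG00000196154.12, minus strand, start site 153545806), also called metastasin, binds non-muscle myosin IIA and is a marker of mesenchymal cells. It lay with S100A5 under a peak of 8059 and 8543 bp with fold enrichments of 15.7 and 9.92, at ranks 1639 and 2407. S100A3 (ENSG00000188015.10, minus strand, start site 153549258), a cysteine-rich member known from the hair cuticle, had a peak of 1712 and 1778 bp with fold enrichments of 14.8 and 8.38, at ranks 1918 and 3410. In both split lists the order was thus S100A6, S100A4 and S100A3. One start site of S100A4, at 153550136, fell under the S100A3 peak, so a peak there cannot be given to either gene alone.

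S100A2 (ENSG00000196754.13, minus strand, start site 153565844) encodes a member known from basal epithelium and responsive to p53 family factors. Its peak was the strongest of the locus in all the large lists, at fold enrichments of 37.1, 38.9 and 29.9. These stood at ranks 18, 9 and 13 among the promoter peaks of their lists. The peak was 5560, 5602 and 5043 bp wide, and reached 3449, 3373 and 3356 bp upstream and 2110, 2228 and 1686 bp downstream of the start. All 6 annotated start sites of S100A2 lay under it, and the AP-1 motif printed above lay within it.

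S100A16 (ENSG00000188643.11, minus strand, start site 153613137), a broadly expressed member, was covered over most of its length by a peak of 6232, 6678 and 5842 bp. The peak began only 547, 578 and 661 bp upstream of the start and ran 5684, 6099 and 5180 bp into the gene. Its fold enrichments of 21.1, 17.4 and 13.1 stood at ranks 586, 911 and 1101. Of the 27 distinct start sites annotated for the 7 marked genes, 27 lay under a peak in every large list, and of the 6 annotated for S100A7, S100A8 and S100A9 none did.

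**Figure D3:**
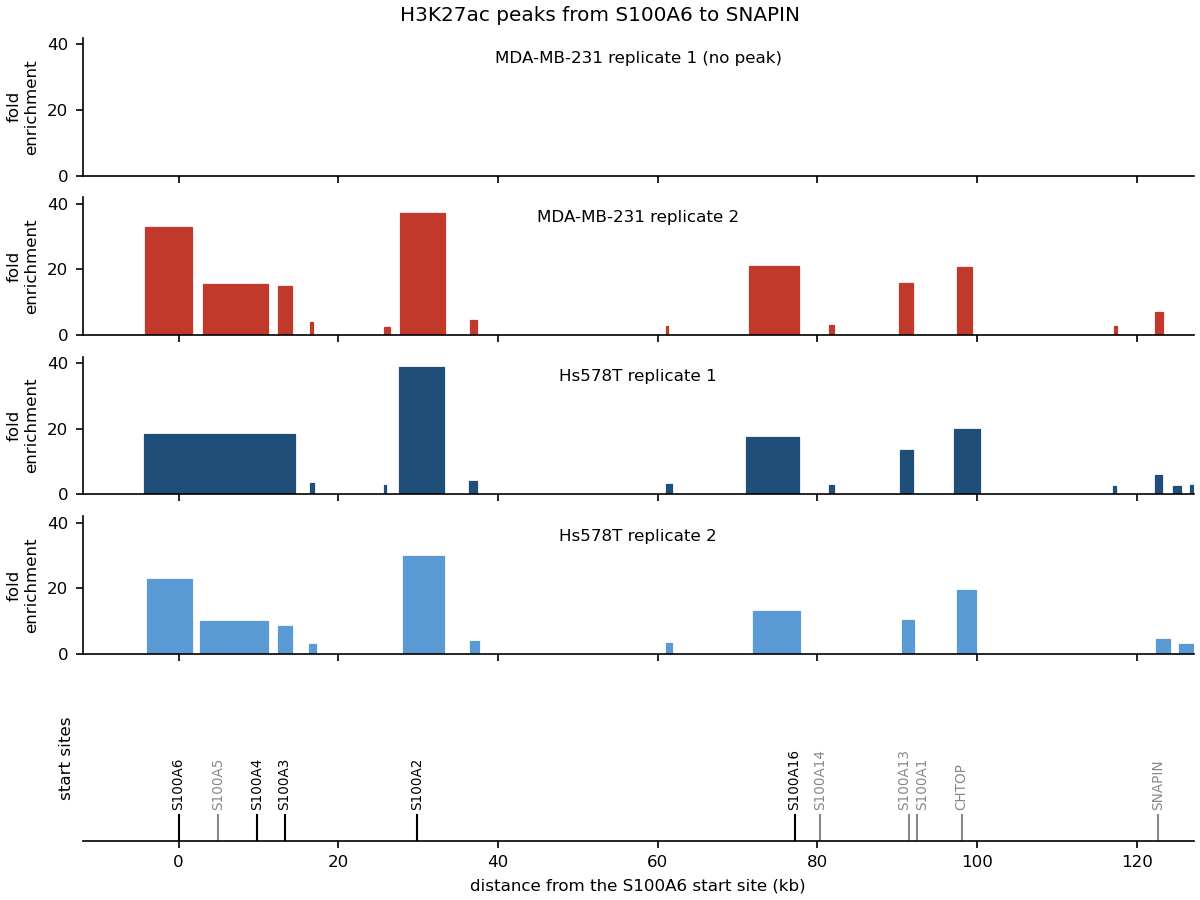
Fold enrichment (vertical axis, linear) of each deposited peak against distance from the S100A6 start site in kb (horizontal axis), 1 panel per list, with start sites of members in black and of other genes in grey. The stretch over S100A6 to S100A3 is 1 peak in Hs578T replicate 1 and 3 peaks in the other large lists, and the S100A2 peak is the highest in each of the 3 large lists.

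In width, S100A10 stood at percentiles of 98.1, 97.4 and 98.1 among promoter peaks, and S100A2 at 94.0, 92.8 and 92.8. The median promoter peak measured 1759, 1848 and 1762 bp. S100A3 was the exception in the split lists, at percentiles of 48.4 and 50.6. Percentiles of fold enrichment lay between 65.4 for S100A3 in Hs578T replicate 2 and 99.9 for S100A2 in Hs578T replicate 1, and each of the 7 genes stood above the median of 50 in each large list. With 1 large list of MDA-MB-231, a difference between the lines in any of these ranks cannot be set against the spread within that line.

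**Figure D4:**
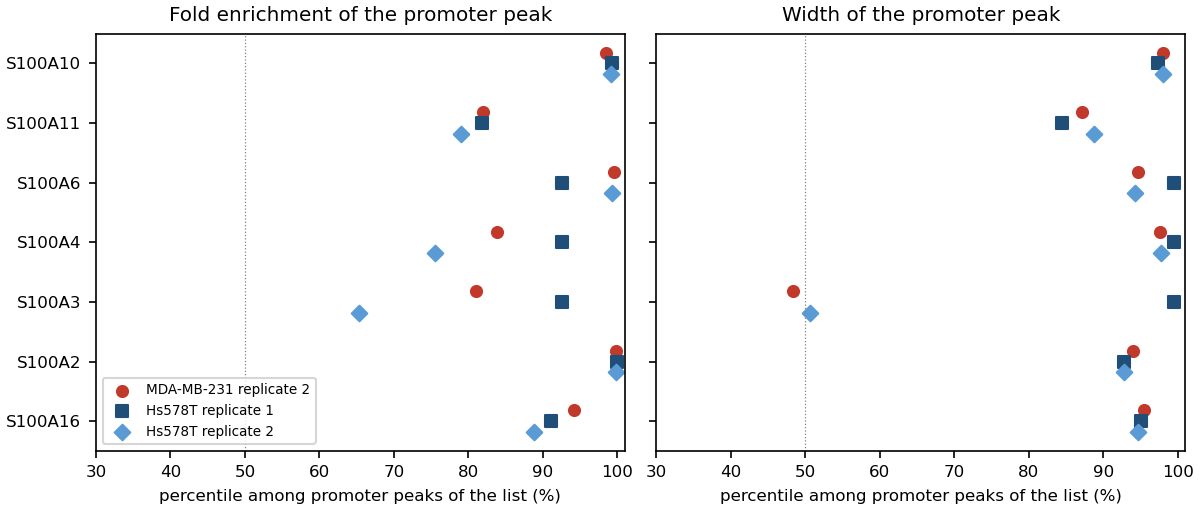
Percentile of fold enrichment (left) and of width (right) of the promoter peak among all promoter peaks of the same list, for the 7 marked members from top to bottom in order along the chromosome. Circles are MDA-MB-231 replicate 2, squares and diamonds Hs578T replicates 1 and 2, and the dotted line is the median. S100A2 has the highest fold enrichment percentile in each list, and S100A3 lies near the median width in the 2 lists where the stretch was split.

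S100A9 (ENSG00000163220.11, plus strand, start site 153357854) and S100A8 (ENSG00000143546.10, minus strand, start site 153391073) encode the subunits of calprotectin, an abundant protein of neutrophils and a ligand of TLR4 and RAGE. S100A7 (ENSG00000143556.9, minus strand, start site 153460651) encodes psoriasin, which is made by inflamed keratinocytes. The nearest peak to S100A9 was 173937, 173782 and 153336 bp away. For S100A8 the distances were 140718, 140563 and 120117 bp, and for S100A7 they were 71140, 70985 and 50539 bp. The median distance over unmarked protein-coding genes was 35055, 34135 and 33856 bp, and 15.1%, 14.6% and 16.4% of them lay at least as far from a peak as S100A9. For S100A8 this share was 18.9%, 18.5% and 20.8%, and for S100A7 it was 32.8%, 32.2% and 39.7%, so that many unmarked genes lay as far from a peak as S100A7. The shorter distances in Hs578T replicate 2 rest on a peak of 517 bp with a fold enrichment of 2.62, at chromosome 1, 153511190 to 153511706, that the other lists lack.

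These genes lay in a single interval without peaks, 1.01, 1.01 and 0.993 Mb long. It made up 58.5%, 58.5% and 57.4% of the locus and held the start sites of 43 protein-coding genes and of 60 genes of any type. Of the 43330, 46307 and 44897 intervals between neighbouring peaks of these lists, 333, 313 and 324 were at least as long, a count that includes gaps in the assembly. The 250 bp upstream of S100A7 and S100A7A were 96.4% identical, with 9 differing bases, so reads may not be placed between these copies. How the authors treated reads with several matches is not given in the sources used here, and absence of a peak at this pair is less certain than at S100A8 and S100A9.

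**Figure D5:**
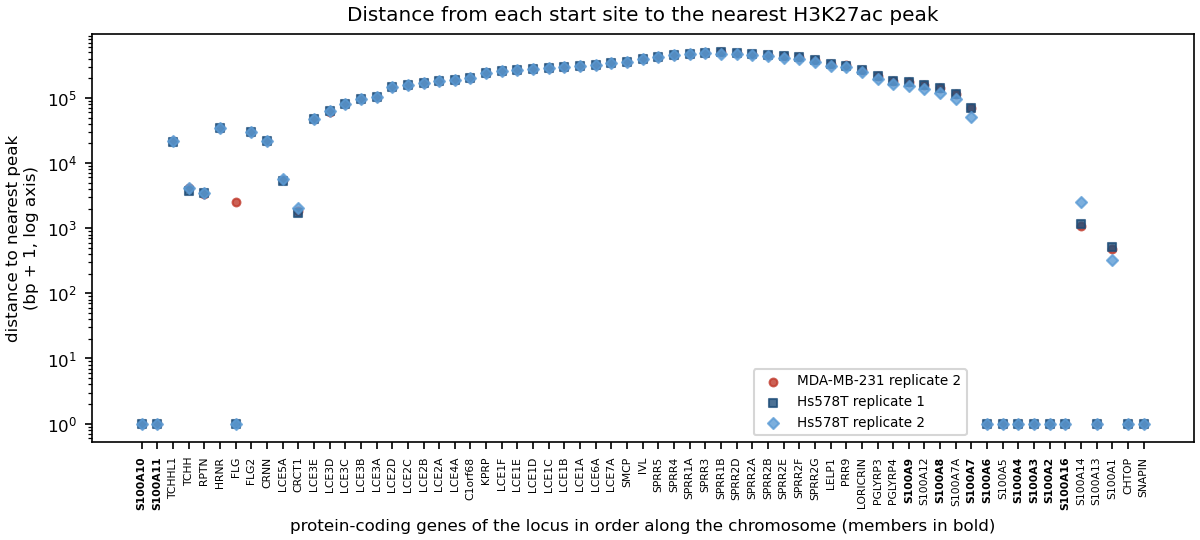
Distance from the canonical start site to the nearest peak in bp, with 1 added (vertical axis, logarithmic), for the protein-coding genes of the locus in order along the chromosome (horizontal axis), members in bold. Circles are MDA-MB-231 replicate 2, squares and diamonds Hs578T replicates 1 and 2, and points at the bottom are start sites under a peak. Distances rise through the LCE genes to a maximum among the SPRR genes, at SPRR3 in Hs578T replicate 2 and SPRR1B in the others, and fall from there towards S100A7.

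Other S100 genes were examined from a fixed list. Of the 6 further protein-coding S100 genes of chromosome 1, S100A5, S100A13 and S100A1 were marked in each large list and S100A7A, S100A12 and S100A14 in none, while S100A7L2 is annotated as a pseudogene and was not counted. S100A13, which takes part in the release of proteins without a signal peptide, had a promoter peak with fold enrichments of 15.9, 13.5 and 10.2. S100A1, known from heart muscle, was marked only by that peak, which ended 477, 509 and 326 bp before its start. S100A14, an epithelial member beside S100A16, had its nearest peak 1083, 1144 and 2527 bp away. A window of 2.5 kb would therefore mark S100A14 in MDA-MB-231 replicate 2 and Hs578T replicate 1. Elsewhere in the genome S100B, S100P, S100G and S100Z had no promoter peak in any list, so that 0 of 4 were marked. The nearest peak to S100P lay 1600, 1627 and 1642 bp from its start, so this count depends on the 1 kb window. Over all protein-coding genes 55.6% were marked in every large list, so 3 of 6 on chromosome 1 is near that share.

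Genes of the epidermal differentiation complex were almost free of promoter peaks. Of 41 genes for cornified envelope and related proteins, among them the LCE and SPRR families, IVL and LORICRIN, 0 were marked in MDA-MB-231 replicate 2 and 1, FLG, in each Hs578T list. FLG encodes filaggrin, which bundles keratin filaments. Its peak was weak, at 475 and 583 bp with fold enrichments of 2.81 and 3.10, and in MDA-MB-231 replicate 2 the nearest peak was 2488 bp away. Elsewhere in the locus, peaks of like strength were called in 1 Hs578T list and not in the other, so the absence of this one in MDA-MB-231 replicate 2 is no larger than what differed between replicates. Of the 8 other protein-coding genes of the locus, among them CRCT1 and KPRP, 2 (CHTOP and SNAPIN) were marked in each large list. Over all protein-coding genes this share was 55.6%.

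Partners and receptors of S100 proteins were marked in full. All 9 of ANXA1, ANXA2, ANXA6, ANXA11, AHNAK, MYH9, AGER, TLR4 and BSG had a promoter peak in each large list, against 55.6% of all protein-coding genes. ANXA2, the partner of S100A10, had a peak of 14790, 15032 and 14878 bp with fold enrichments of 18.8, 19.2 and 16.1. TLR4, a receptor of calprotectin, had fold enrichments of 17.7, 16.1 and 14.1. AGER, which encodes RAGE, was weaker at 6.33, 6.82 and 5.52, and in MDA-MB-231 replicate 2 its peak ended 13 bp short of the start site. Most of these genes are active in many cell types, and the list was chosen with earlier results of these data known.

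The lists were then compared over the locus. Merging all peaks gave 37 regions, of which 25 were called in the 3 large lists, 6 in a pair of them and 6 in 1. Of the regions in a pair of lists, 4 were absent from Hs578T replicate 2 and 2 from MDA-MB-231 replicate 2. Regions missing from a large list were weak, with fold enrichments between 2.43 and 3.47 and none above the percentile of 26.3 in its list. MDA-MB-231 replicate 2 had 96.9% of its 32 peaks overlapped by Hs578T replicate 1 and 84.4% by Hs578T replicate 2, and overlapped 85.3% and 84.8% of theirs. Between the Hs578T lists 82.4% and 87.9% of the peaks of replicates 1 and 2 were overlapped. As a Jaccard index, the shared over the combined bases of a pair, this came to 0.800 and 0.781 across the lines and 0.781 for the Hs578T pair. The overlap across lines was thus as close as that of the Hs578T replicates. Over the 25 shared regions, Spearman's rho of fold enrichment was 0.954 and 0.917 across the lines, with Hs578T replicate 1 first, and 0.970 between the Hs578T lists, as a description of regions that share a locus and not of replicates.

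Distal peaks, more than 2.5 kb from every canonical start site, numbered 17, 19 and 18. The region upstream of S100A11 described above had the highest mean percentile of fold enrichment among them, at 99.0. It was followed by regions at 151980203 to 151983205, 10654 bp from the S100A10 start and around the end of that gene, at 152501257 to 152503374 near LCE5A, at 152436299 to 152437365 within FLG-AS1, and at 153572343 to 153573592, 6499 bp upstream of S100A2, with mean percentiles of 58.2, 55.8, 41.8 and 37.8. The region near S100A11 therefore stood far above the other distal peaks of the locus. The AP-1 motif nearest to the middle of each region is shown for the strongest pair of distal regions, where the mark lies outside a canonical promoter, with 30 bases either side, the motif in capitals and the plus strand of hg38.
chr1:152047537-152047603, upstream of S100A11: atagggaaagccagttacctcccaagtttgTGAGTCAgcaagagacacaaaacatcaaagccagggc
chr1:151980682-151980748, beyond the end of S100A10: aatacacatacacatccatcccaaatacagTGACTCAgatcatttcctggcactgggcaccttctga

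In the distal peaks, AP-1 letters stood in 7 of 17, 41.2% (95% Wilson interval 21.6 to 64.0%), for MDA-MB-231 replicate 2. For Hs578T replicate 1 they stood in 8 of 19, 42.1% (23.1 to 63.7%), and for Hs578T replicate 2 in 9 of 18 (29.0 to 71.0%). Over all distal peaks of these lists the share was 51.9%, 51.1% and 50.3%, all within the intervals, so no difference of the locus from the rest was detectable at these numbers of peaks. Distal peaks of the locus were narrower, with medians of 780, 965 and 810.5 bp against 1220, 1237 and 1199 bp over each list. In the central 500 bp alone the shares were 23.5%, 26.3% and 27.8% in the locus and 32.0%, 30.7% and 30.4% over each list. Along the locus there were 45.5 motifs per 100 kb inside regions called in any list and 16.8 outside. The interval without peaks that the large lists shared had 18.2 per 100 kb, or 181 motifs. This interval makes up most of the sequence outside regions, so the last 2 densities are not independent. The stretch from S100A6 to S100A3 held 10 motifs in 18903 bp and the S100A2 region 3 in 5678 bp. The larger count belongs to the wider region, so the counts alone show no concentration of motifs.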

How the data were processed

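H3K27ac ChIP-seq peak lists of 4 libraries, 2 of MDA-MB-231 and 2 of Hs578T, were used, grouped by the sample titles. The authors trimmed reads with Trimmomatic, mapped them to hg38 with Bowtie2, called peaks per library with MACS2 after subtraction of input and removed blacklisted regions with bedtools. Versions and MACS2 settings are not given in the sources used here. The lists have the 9 columns of broad output. The deposited fold enrichment is a ratio to the local background estimated in peak calling, the deposited p- and q-value columns hold −log10 values, and the deposited score follows −log10 q. Read depth is unknown, and weak peaks depend on it and on the input.

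Gene positions came from GENCODE 44. Lists were compared by overlap of at least 1 bp, with peaks on chromosomes 1 to 22 and X, using Python 3.11.15, pandas 2.3.3 and scipy 1.17.1. The overlap routines were tested on simulated peaks. With 2 libraries per line an exact two-sided permutation test cannot go below p = 0.333, so no test between lines was made. Intervals allow for counting error alone, as peaks near each other are not independent. Named genes were the 10 members, fixed lists of related genes, all coding genes of the locus and the 5 distal regions with the highest mean percentile. The non-coding start sites under peaks and the regions beside FLG and CRCT1 were named after their values were seen. Members and lists were chosen with earlier results of these data known. Sequences were RefSeq promoters, matched by symbol and start site for 10 of the 10 members, and hg38.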

Additional observations from a re-analysis of the deposited data

How the results depend on the processing

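The same number of members, 7 in each large list and 0 in MDA-MB-231 replicate 1, was marked with windows of 500 bp and 2.5 kb, with all basic start sites, with the strongest 50% of peaks by score and with peaks of at least 4 in fold enrichment. For 10 results 53 values were recomputed, of which 39 moved by less than the replicate SD, the Wilson interval or, for counts, 1.5 times, and 14 moved by more. Where the measure was the SD of 2 values, leaving out 1 of them could not move the mean beyond it. Such values are among the 39 by construction, including a fall of MDA-MB-231 coverage to 0, and the tally is no measure of stability. Leaving out a replicate moved the mean number of marked members of MDA-MB-231 (3.5) to between 0 and 7 and its mean number of peaks in the locus (16) to between 0 and 32, so these means describe neither list, and its coverage of 2.09% ranged from 0 to 4.17%. Peaks of MDA-MB-231 fell to a mean of 8 with the strongest 50% and 10.5 with a fold enrichment of at least 4, and those of Hs578T to 16 and 17.5. Coverage in Hs578T was 3.83% without the flank, 3.71% with the strongest 50% and 3.80% with a fold enrichment of at least 4. Overlap between the lines, 90.6% on average over the 2 pairs that had peaks, was 70.3% when 50% of both peaks had to overlap and 96.7% with the strongest 50%, and overlap of the Hs578T lists, 87.9%, was 72.7% and 100% under the same alternatives. The AP-1 share of Hs578T was 27% and that of MDA-MB-231 replicate 2 was 23.5% in the central 500 bp. Fewer peaks or bases enter these alternatives by construction. Without MDA-MB-231 replicate 2 no overlap between lines and no AP-1 share of that line could be computed. No paired analysis was possible because the results come from no test and the replicate numbers are only names.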

Other observations

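Some start sites of non-coding genes in the locus were marked as well. A region at 151944958 to 151948313 lay 68 bp from the start of the long non-coding RNA gene ENSG00000286581, on the far side of S100A10 from S100A11, with fold enrichments of 13, 15.2 and 15.0, in the same order of lists. FLG-AS1, a non-coding gene that runs across FLG on the other strand, had a peak at its start site (152188762 to 152189960) with fold enrichments of 11.3, 6.87 and 5.76.

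Peaks were also found near FLG and CRCT1, outside their promoter windows. A region at 152326992 to 152330519, no closer than 1753 bp to the FLG start in any list, had fold enrichments of 12.1, 15.6 and 15.0. Another, at 152516173 to 152518880, lay 1810, 1691 and 2051 bp from the start of CRCT1, which encodes a cysteine-rich protein, with fold enrichments of 17.2, 20.2 and 18.3. It was the last peak before the long interval without peaks that ends near S100A6. Neither region counts as a promoter peak or as distal under the distances used.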
